A study of Mus musculus with 4 samples.

Results

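The immediate early genes described here are 38 genes chosen by symbol, of 27487 genes listed in the 4 deposited tables. The rule that chose them uses no measured value, but the list was drawn up with earlier results of these data known. All 38 were listed in every table and had UMIs in the kept cells of every library. The material was cerebral cortex from mice of 24 weeks, either Tg2576, heterozygous on B6;SJL for a human amyloid precursor protein transgene with the Swedish mutation (APPSWE), or wild-type littermates. There were 4 groups, female wild-type, female Tg2576, male wild-type and male Tg2576, and each group was 1 Drop-seq library made from a pool of 9 mice (36 mice in all). All groups shared the same handling, namely PBS perfusion under ketamine and metedomidine, manual dissection, dissociation with an adult brain kit, and capture of single cells in droplets. The promoter that drives the transgene is not given in the sources used here. Because each group is a single pool, the spread between mice cannot be seen, and no group has a second library. The p-values below use the variation left in each fit after its terms, with the spread of counts estimated over many genes. They do not measure the spread between mice or between libraries of the same group.

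Immediate early genes are switched on within minutes of a stimulus by factors that are already in the cell, among them serum response factor with its ternary complex partners and CREB, so that no new protein has to be made first. Many encode transcription factors, such as the FOS and JUN subunits of the AP-1 complex and the EGR, KLF and NR4A families, while others encode proteins that end the response, such as the DUSP phosphatases and the mRNA decay factors of the ZFP36 family. In brain they are used as marks of neuronal activity and of activated microglia and vessels, and enzymatic dissociation of tissue is itself known to induce them. RNA that was present in the tissue and RNA made during dissociation cannot be told apart in these libraries.

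The libraries held 1926857 to 2294296 UMIs over 3000 barcodes each, and 4835 cells with 200 to 7000 genes and at most 20% mitochondrial UMIs were kept (1044, 1249, 1010 and 1532 cells in the order female wild-type, female Tg2576, male wild-type and male Tg2576, which is used for all values below). Of the kept UMIs, 2.31%, 1.66%, 2.50% and 2.43% came from the 38 genes, while the mitochondrial share was 9.27%, 9.92%, 6.89% and 5.00%. Barcodes with fewer than 200 genes, which can hold RNA outside cells as well as small or damaged cells, held 0.338%, 0.226%, 0.409% and 0.563% UMIs of the 38 genes. Only 6 barcodes were shared by kept cells of different libraries. Clusters were found without the 38 genes, and 6 cell types had at least 20 cells in every library: microglia (439, 487, 324 and 504 cells), astrocytes (226, 164, 216 and 317), endothelial cells (150, 304, 197 and 309), oligodendrocytes (83, 88, 77 and 105), mural cells (34, 39, 36 and 54) and neuroblasts or progenitors (23, 29, 30 and 31). The summed level of the 13 microglial markers was 33335 to 42882 CPM (UMIs scaled to a total of 1000000) in microglia and 510.4 to 1282 CPM in astrocytes, and that of the 10 endothelial markers was 23529 to 26403 CPM in endothelial cells. A cluster of 65 endothelial cells with interferon-response genes at its head came almost wholly from the female Tg2576 and male wild-type libraries, with 0, 43, 21 and 1 cells. Neurons numbered 14, 36, 4 and 45, too few to be tested. A cluster of 208 cells (36, 62, 48 and 62) had 9 of 9 macrophage markers raised, but neutrophil and ependymal markers were also among its leading genes. It was left unnamed and was not tested, and the 38 genes made up 2.34%, 1.62%, 1.25% and 1.21% of its UMIs.

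Promoter windows from RefSeq (GRCm38.p6) were given for 30 of the 38 genes. In the 250 bases before the start, the CREB half-site TGACG, read on both strands, was present in 17 of the 30 genes (56.7%) and in 19.8% of all 27025 genes with a window. The full palindrome TGACGTCA, which contains that half-site, was present in 4 of the 30 (13.3% against 1.77% of all genes), in *Maff*, *Dusp1*, *Btg2* and *Ppp1r15a*. The CArG box of serum response factor was present in *Egr2* and *Zfp36* (6.67% against 1.62%) and TATAAA, read on the coding strand, in *Fos*, *Zfp36l1*, *Btg1*, *Gadd45b* and *Gadd45g* (16.7% against 8.94%). The AP-1 site TGANTCA was in *Zfp36l1* and *Csrnp1* (6.67% against 7.82%) and CCAAT, on both strands, in 14 of the 30 (46.7% against 37.5%). The 130 bases before the start are shown for the 3 genes that edgeR called lower in Tg2576 endothelial cells below, *Fos* at chr12:85473760-85473889 (plus strand), *Fosb* at chr7:19310046-19310175 (minus strand) and *Nr4a1* at chr15:101266716-101266845 (plus strand), and for the 2 with a CArG box, *Zfp36* at chr7:28379229-28379358 (minus strand) and *Egr2* at chr10:67537739-67537868 (plus strand). Capitals mark the CArG box, TGACG or its reverse complement CGTCA, and TATAAA.
Fos: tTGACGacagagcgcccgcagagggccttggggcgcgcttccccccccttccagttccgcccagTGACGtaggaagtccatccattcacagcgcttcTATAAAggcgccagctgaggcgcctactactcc
Fosb: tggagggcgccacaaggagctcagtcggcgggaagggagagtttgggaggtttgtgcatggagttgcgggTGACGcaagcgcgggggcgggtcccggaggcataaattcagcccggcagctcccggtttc
Nr4a1: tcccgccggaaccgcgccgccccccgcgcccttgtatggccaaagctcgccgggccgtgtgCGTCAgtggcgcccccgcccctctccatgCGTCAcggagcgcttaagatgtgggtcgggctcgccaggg
Zfp36: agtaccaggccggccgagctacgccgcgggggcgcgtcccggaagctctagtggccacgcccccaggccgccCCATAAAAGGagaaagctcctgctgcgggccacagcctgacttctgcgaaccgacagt
Egr2: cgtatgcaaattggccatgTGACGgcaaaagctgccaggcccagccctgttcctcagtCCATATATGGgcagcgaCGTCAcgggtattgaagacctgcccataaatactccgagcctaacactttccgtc
*Fos*, *Fosb* and *Nr4a1* each hold TGACG within 70 bases of the start, and *Egr2* holds it on either side of its CArG box. A match of letters is a description of these windows and not a measured binding site.

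Across the 6 tested cell types, RNA of the immediate early genes was highest in microglia and lowest in astrocytes. In microglia, the resident immune cells of the brain, the 38 genes made up 4.33%, 3.46%, 5.41% and 5.58% of all UMIs. In mural cells, the pericytes and smooth muscle cells of vessels, they made up 2.82%, 1.19%, 2.90% and 2.66%, and in endothelial cells 1.58%, 0.962%, 2.47% and 1.55%. Microglia were above every other tested type in each of the 4 libraries. Mural cells were above endothelial cells in each library, by a small margin in the female Tg2576 library, which had the lowest share of the 4 in both types and in microglia. Neuroblasts or progenitors held 0.687%, 0.566%, 0.965% and 0.797%, oligodendrocytes 0.429%, 0.290%, 0.417% and 0.400% and astrocytes 0.154%, 0.274%, 0.284% and 0.242%. The astrocyte share was at or below that of barcodes under 200 genes in the female wild-type, male wild-type and male Tg2576 libraries and above it in the female Tg2576 library. Whether the astrocyte UMIs came from the astrocytes was not tested. The oligodendrocyte shares were of the size of the shares in those barcodes. When every cell was thinned to 500 UMIs, the share was 4.28%, 3.24%, 5.37% and 5.45% in microglia, 2.21%, 0.913%, 1.93% and 2.52% in mural cells and 1.42%, 0.992%, 2.31% and 1.43% in endothelial cells, so microglia were again above both vessel types in every library. At this depth mural cells were below endothelial cells in the female Tg2576 and male wild-type libraries. Thinning left out 13, 50, 9 and 40 microglia and 15, 47, 25 and 87 endothelial cells that were shallower.

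**Figure D1:**
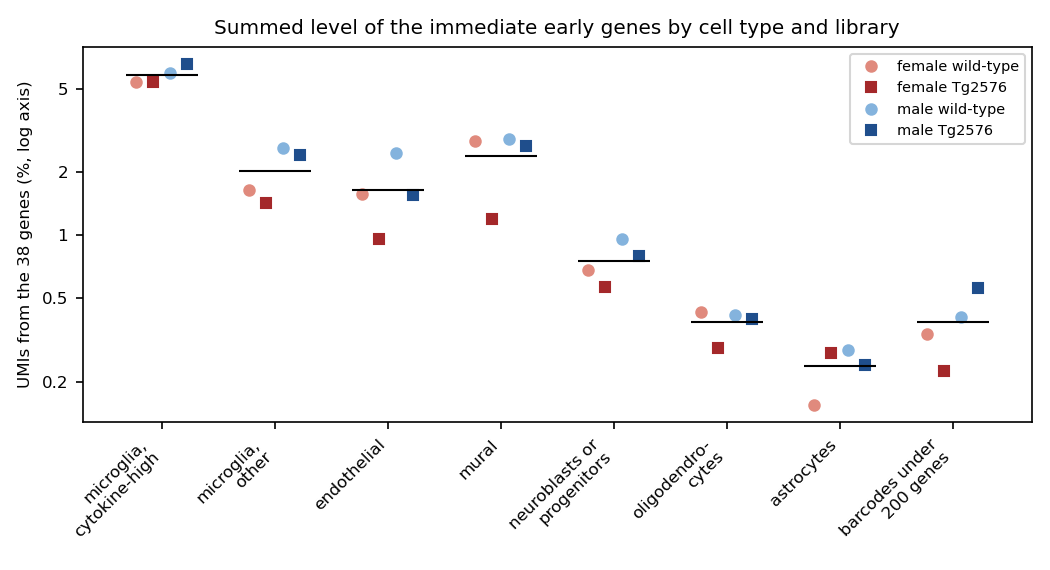
Share of UMIs (percent, vertical axis) from the 38 immediate early genes in the 2 microglial clusters, the other tested cell types and barcodes under 200 genes, on a log axis. Each point is 1 library and the line is the mean of the 4. The cytokine-high microglia lie between 5.38% and 6.59% and astrocytes between 0.154% and 0.284%.

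Each type was then compared with the mean of the other 5 tested types by edgeR's quasi-likelihood test on summed UMIs, with the library as a term and Benjamini-Hochberg adjustment over 7091 genes. In microglia, 29 of 32 testable members were higher and 1, *Nr4a2*, was lower, with a median log2 difference of 2.79 against -0.043 over all genes, of which 31.8% were called higher. The other 6 members (*Arc*, *Npas4*, *Egr3*, *Nr4a3*, *Myc* and *Dusp2*) did not pass the filter on low counts. In mural cells 25 of 32 were higher and 0 lower (median 1.76 against 0.0076, background 17.2%). Mural markers in these cells summed to 11824, 19435, 16073 and 17960 CPM. Endothelial markers there summed to 9632, 4309, 9871 and 10855 CPM and astrocyte markers to 5479, 5131, 4184 and 4820 CPM. The part of other cells' RNA in the mural levels and calls was not tested. In endothelial cells 21 of 32 were higher and 2, *Btg1* and *Egr1*, were lower (median 0.82 against 0.027, background 24.6%). The other types went the opposite way. In astrocytes 24 of 32 members were lower and 0 higher, against 18.7% of all genes lower. In oligodendrocytes 26 of 32 were lower and 1, *Rhob*, was higher, against 17.0% lower. In neuroblasts or progenitors 19 of 32 were lower and 2, *Btg1* and *Gadd45g*, were higher, against 19.7% lower. With a mitochondrial limit of 10%, 7 of 26 were lower in neuroblasts or progenitors, and the log2 differences of *Ier3* (0.83, adjusted p = 0.035), *Nr4a1* (0.43) and *Btg2* (0.04) turned to above 0. At that limit the cluster of this name held 134 cells, with the macrophage marker *Mrc1* and the neutrophil marker *Ngp* among its leading genes. Its summed cytokine and chemokine level was 999 CPM, against 167 CPM in the main cluster of 113 cells. The part of such cells in these values was not tested. With cells thinned to 500 UMIs, 16 of 23 testable members were higher in mural cells and 17 of 23 lower in oligodendrocytes. The median log2 differences of the members in these 3 types were -2.30, -2.15 and -1.10, against 0.011, -0.11 and -0.30 over all genes. Cell types differ in the RNA they hold, and the split of all genes moved with the scaling: in microglia 2256 genes were higher and 1675 lower with TMM factors, against 1867 and 2177 with library totals alone, where 29 members were higher and 1 lower. The same splits were 2060 and 1329 against 1642 and 1996 in astrocytes, 1449 and 1204 against 1264 and 1603 in oligodendrocytes, and 1104 and 1400 against 1934 and 680 in neuroblasts or progenitors, where the members then stood at 5 higher and 12 lower.

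By mean CPM over the libraries, 24 members were highest in microglia, 10 in mural cells, 2 in endothelial cells, 1 in neuroblasts or progenitors and 1 in oligodendrocytes. Of these, 19 were above every other tested type in each of the 4 libraries in microglia and 2 in mural cells (*Nr4a2* and *Gadd45b*). Levels below are CPM within a type, and differences are log2 differences from the mean of the other 5 types with their SE.

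The AP-1 complex joins FOS, JUN, ATF and MAF subunits into dimers that bind the promoters and enhancers of the later response. All 8 members of this role were called higher in microglia. *Jun*, the most studied JUN subunit, stood at 9120.4, 8263, 10999.6 and 12213 CPM in microglia and at 999 to 4490.1 CPM in mural cells and 1632 to 4360.1 CPM in endothelial cells. The microglial values lay above those of both vessel types in every library, and the difference from the other types was 3.28 ± 0.12 (SE, adjusted p = 7.0e-70). *Fos*, which pairs with JUN proteins, gave a different order. It stood at 4362, 3573, 5312 and 5642 CPM in microglia and at 5135, 2509.8, 5186 and 4952 CPM in mural cells, so mural cells were the higher in the female wild-type library and microglia in the other 3, and their ranges overlapped. *Fosb* stood at 1892, 1305, 2502 and 1994 CPM in microglia, and *Junb* at 2404, 1962, 3719 and 4014 CPM. Both were above mural cells, the next type, in every library. *Jund*, a JUN subunit with high basal expression in many cells, stood at 2120.0, 1779, 2997 and 2605 CPM in microglia, and at 454 to 717 CPM in oligodendrocytes, against its level in barcodes under 200 genes (155 to 246 CPM). *Atf3*, a stress-induced subunit that often represses, stood at 3347, 2649, 3120.3 and 3006 CPM in microglia, a difference of 4.26 ± 0.13 (SE, adjusted p = 7.6e-84). Its astrocyte level was 53.3 to 161 CPM. *Fosl2* and *Maff* were scarce. *Fosl2* was highest in mural cells with 343, 22.2, 54.2 and 26.4 CPM, where the female wild-type library alone was high, and the ranges of *Maff* overlapped between mural cells (43.5 ± 36.5 CPM, SD, n = 4) and microglia (42.2 ± 24.0 CPM, SD, n = 4).

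**Figure D2:**
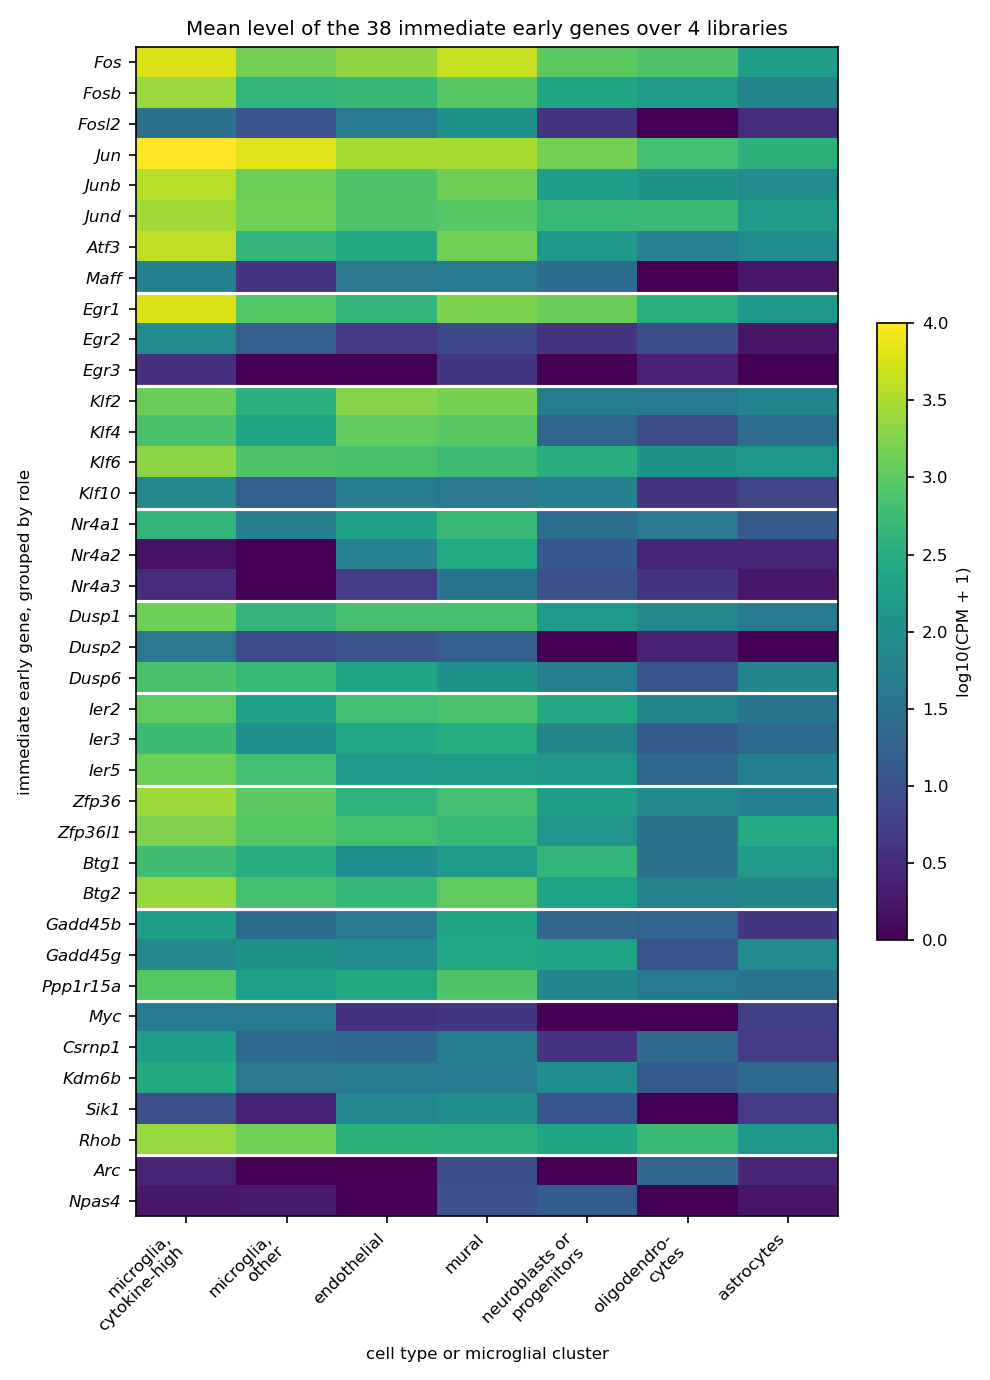
Mean level over the 4 libraries of each of the 38 genes (rows, grouped by role) in the 2 microglial clusters and the other tested cell types (columns), as log10(CPM + 1) on a scale from dark (0) to yellow (4). The cytokine-high microglia are the lightest column for most rows, while *Klf2* and *Klf4* are lightest in endothelial cells and *Nr4a2* in mural cells.

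The EGR factors are zinc finger activators that respond to growth factor and calcium signals. *Egr1* stood at 4374, 2839.9, 5918 and 5387 CPM in microglia and was next in mural cells, at 1962, 933, 2139 and 1545 CPM. The microglial values were the higher in every library, with a difference of 3.35 ± 0.12 (SE, adjusted p = 4.2e-75). In endothelial cells *Egr1* was lower than the mean of the other types by the same test, at 281 to 688 CPM. *Egr2*, known for its part in myelin formation by Schwann cells, stood at 65.4, 37.2, 88.3 and 63.7 CPM in microglia and at a mean of 8.15 CPM in oligodendrocytes, the next type. *Egr3* had only 6 UMIs in all kept cells and is given no order.

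Of the 4 KLF factors, *Klf2* and *Klf4* had their highest mean in endothelial cells and *Klf6* and *Klf10* in microglia. All 4 were called higher in microglia than the mean of the other tested types. By mean level, however, *Klf2* and *Klf4* were lower in microglia than in both endothelial and mural cells. *Klf2* and *Klf4* are the factors that shear stress raises in endothelium, where they hold the vessel wall quiescent. *Klf2* stood at 1479, 1267, 3104 and 1621 CPM in endothelial cells, 1455, 599.7, 2261 and 1638 CPM in mural cells and 698, 733, 1171 and 1411 CPM in microglia. *Klf4* stood at 1333, 798, 1567 and 675 CPM in endothelial cells and 1079, 599.7, 1043 and 1043 CPM in mural cells. The endothelial differences from the other types were 3.36 ± 0.14 (SE, adjusted p = 6.1e-61) for *Klf2* and 3.79 ± 0.16 (SE, adjusted p = 2.9e-61) for *Klf4*, but neither gene separated endothelial from mural cells in every library. Mural cells also held RNA of endothelial markers, as given above, and its part in their *Klf2* and *Klf4* levels was not tested. *Klf6*, which responds to injury, was a microglial member of the family at 1781, 1317, 1854 and 1662 CPM. It was above the next type, endothelial cells (511 to 975 CPM), in every library. *Klf10*, a target of TGF-beta, was scarce in all types, with a mean of 56.9 CPM in microglia and 54.1 CPM in neuroblasts or progenitors, and their ranges overlapped.

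The NR4A receptors are orphan nuclear receptors whose activity is set by their own level. All 3 had their highest mean in mural cells. *Nr4a2*, best known from dopamine neurons, stood at 442, 267, 284 and 119 CPM in mural cells, at 33.7 to 109.5 CPM in endothelial cells and had only 1, 0, 0 and 0 UMIs in microglia. Mural cells were the highest in every library, with a difference of 5.66 ± 0.40 (SE, adjusted p = 2.6e-31), while microglia were called lower (adjusted p = 2.7e-04). *Nr4a1* stood at 834, 155, 609 and 396 CPM in mural cells, 436, 219.5, 307 and 305 CPM in microglia and 268, 86.5, 305 and 125 CPM in endothelial cells. Mural cells had the highest mean, but in the female Tg2576 library they were below microglia. *Nr4a3* was highest in mural cells at 34.1 CPM, resting on 10 UMIs there.

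Most members that end the response were also highest in microglia. The DUSP phosphatases remove phosphate from MAP kinases. *Dusp1* stood at 925, 703, 1211 and 1319.7 CPM in microglia, above mural cells (444 to 801 CPM) in every library. *Dusp6*, which acts on ERK, stood at 529, 593, 691 and 764 CPM in microglia and at 137 to 301 CPM in endothelial cells, a difference of 3.66 ± 0.15 (SE, adjusted p = 6.3e-65) from the other types. *Dusp2* was scarce (mean 29.6 CPM in microglia). ZFP36 and ZFP36L1 bind AU-rich elements and bring about decay of cytokine mRNAs. *Zfp36* stood at 1846, 1485, 2341 and 2762 CPM in microglia and *Zfp36l1* at 1529.9, 1071, 1844 and 1380.0 CPM. Both were above every other type in each library, and the difference for *Zfp36* was 3.81 ± 0.12 (SE, adjusted p = 4.4e-82). *Btg2*, an antiproliferative gene that p53 induces, stood at 1694, 1273, 1849.9 and 2584 CPM in microglia, while its relative *Btg1*, which is abundant in resting cells, stood at 599, 482, 507 and 490.4 CPM in microglia and at 386, 667, 319 and 435 CPM in neuroblasts or progenitors. The ranges of *Btg1* in these types overlapped, and it was called lower in endothelial cells (-0.95 ± 0.19 SE, adjusted p = 7.7e-06).

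The IER genes were named for their early induction. *Ier2* stood at 628, 439, 986 and 1256 CPM in microglia and 589, 466, 1016 and 898 CPM in mural cells, with overlap. *Ier3*, a survival factor and NF-kB target, stood at 368, 205, 478 and 661 CPM in microglia, and *Ier5*, a partner of heat shock factor, at 941, 678, 1263 and 1533 CPM. In mural cells *Ier5* stood at 65.4 to 311 CPM, below microglia in every library, and its microglial difference was 4.03 ± 0.13 (SE, adjusted p = 5.8e-80).

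Of the growth arrest and stress members, *Ppp1r15a*, which encodes GADD34 and reverses the translation block of the stress response, stood at 638, 622, 812 and 1069.7 CPM in mural cells and 582, 347, 975 and 855 CPM in microglia, with overlap, and was called higher in both. *Gadd45b* was higher in mural cells (227 ± 101 CPM, SD, n = 4) than in microglia (130.3 ± 50.6 CPM, SD, n = 4) in every library. *Gadd45g*, linked to neural differentiation, stood at 474, 44.4, 352 and 119 CPM in mural cells and 107, 409, 130.1 and 183 CPM in neuroblasts or progenitors, where it was called higher (0.98 ± 0.32 SE, adjusted p = 0.010), and at 56.3, 86.8, 82.5 and 102 CPM in microglia. Its mural values were lower in both Tg2576 libraries than in both wild-type libraries, but in the female Tg2576 library only 5.13% of mural cells had a UMI of it. Among the remaining nuclear and signalling members, *Rhob*, a small GTPase of endosomes, stood at 1769, 1783, 2345 and 2507 CPM in microglia and 485, 431, 543 and 548 CPM in oligodendrocytes, against 117 to 233 CPM in barcodes under 200 genes. It was called higher in both types, by 3.10 ± 0.11 and 0.54 ± 0.15. *Kdm6b*, a demethylase of histone H3 lysine 27, stood at 284, 119, 246 and 167 CPM in microglia, above every other type in each library. *Csrnp1* (125 ± 42.7 CPM, SD, n = 4) and *Myc* (39.7 ± 8.03 CPM, SD, n = 4) were highest in microglia, and *Sik1*, a salt-inducible kinase, was highest in mural cells (93.8 ± 60.6 CPM, SD, n = 4).

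The members known from active neurons, *Arc* and *Npas4*, were at the limit of detection. *Arc* had 6, 11, 7 and 7 UMIs in all kept cells of the 4 libraries and *Npas4* had 1, 9, 1 and 6. The few neurons held 0, 9, 0 and 2 UMIs of *Arc* and 0, 6, 0 and 3 of *Npas4*, so no level in neurons could be given for either.

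Microglia fell into 2 clusters that differed in cytokine and chemokine RNA, and the immediate early genes differed between them in the same direction. In the cytokine-high cluster, led by *Ccl4*, *Il1a*, *Ccl3* and *Tnf*, the 38 genes made up 5.40%, 5.38%, 5.94% and 6.59% of UMIs, and in the other cluster, led by genes such as *P2ry12* and *Selplg*, 1.65%, 1.43%, 2.61% and 2.41%. The ranges of the clusters did not overlap. By the same edgeR test with the library as a term, 29 of 31 testable members were higher in the cytokine-high cluster and 0 lower, against 6.05% of 6032 genes higher. The median log2 difference was 2.08 for the members and -0.021 for all genes. With library totals alone the calls over all genes were 279 higher and 278 lower, against 365 and 100 with TMM factors. The exceptions were *Gadd45g* (-0.31 ± 0.26, SE) and *Myc* (0.54 ± 0.39), which were not called.

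*Atf3* stood at 4521, 4787, 3627 and 3813 CPM in the cytokine-high cluster and 410.1, 386, 446 and 458 CPM in the other, a difference of 3.47 ± 0.11 (SE, adjusted p = 1.1e-223). *Egr1* stood at 5954, 4997, 6803 and 6663 and 421, 558, 1242 and 1359 CPM, a difference of 3.03 ± 0.094 (SE, adjusted p = 7.9e-218). For *Atf3* and *Egr1* each value of one cluster was above each value of the other. *Nr4a1* differed by 3.30 ± 0.21 and *Fos* by 2.28 ± 0.088. The size of the difference varied among members, from these down to 1.10 ± 0.074 for *Jun* and 0.64 ± 0.12 for *Dusp6*. In all, 30 of the 38 members were higher in the cytokine-high cluster in each of the 4 libraries. The cytokines and chemokines that chose the cluster are not members.

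A finer clustering changed the picture within the cytokine-high cells. At a resolution of 1, microglia formed 3 clusters, and the share of UMIs from the 38 genes was 4.69%, 4.34%, 5.38% and 5.62% in the cluster of highest cytokine level, 5.60%, 5.76%, 6.20% and 7.10% in the middle one and 1.63%, 1.40%, 2.64% and 2.32% in the lowest. The middle cluster was thus above the cluster of highest cytokine RNA in each of the 4 libraries. The same order of the 3 clusters appeared with mitochondrial limits of 5% and 10% and with at least 500 genes per cell. In 2 of these settings the clusters were not microglia alone. With at least 500 genes, the cluster of highest cytokine level had 9 of 9 macrophage markers raised, with *Mrc1* at its head. With the 5% limit it had 6 of 9 raised, and the middle cluster had 5 of 6 neutrophil markers raised. The part of such cells in the order and in the calls was not tested. With the cluster of highest cytokine level set against the others, edgeR then called 7 members higher at a resolution of 1, 4 with a mitochondrial limit of 5%, 5 with 10% and 4 with at least 500 genes, in place of 29.

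Per cell, the share of UMIs from the 38 genes varied widely among microglia, and whether it was graded or formed separate groups was not tested. Its median in single microglia was 4.04%, 2.51%, 5.04% and 5.47%, with quartiles from 0.777% to 5.34% in the female Tg2576 library and from 3.31% to 7.26% in the male wild-type library. Only 1, 13, 0 and 1 microglia had no UMI of any member. The share fell with the mitochondrial share of the cell. Microglia with at most 2% mitochondrial UMIs held 5.62%, 5.09%, 6.20% and 6.31%, those with 2 to 5% held 5.07%, 3.86%, 5.73% and 5.48%, those with 5 to 10% held 3.93%, 3.16%, 4.75% and 4.76% and those with 10 to 20% held 3.83%, 2.90%, 4.27% and 5.00%. In each library the share was lower above 5% than at or below 2%, and in the male Tg2576 library it did not fall further above 10%. Because the female libraries had the higher mitochondrial shares, this value moves with sex, and its part in the results below was not tested beyond the bins given.

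**Figure D3:**
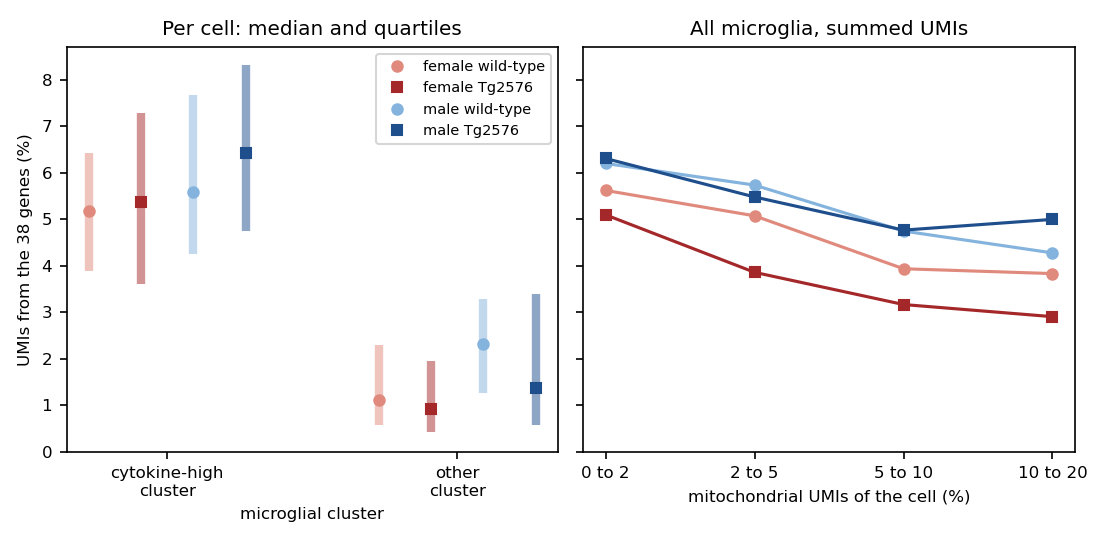
Left, share of UMIs from the 38 genes in single microglia (percent) of the cytokine-high and the other cluster, where points are the median cell of each library and bars span the quartiles. Right, the share over all microglia of each library by the mitochondrial share of the cell (percent). The bars of the 2 clusters do not overlap, and each line starts at its highest value in the cells with the lowest mitochondrial share.

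Members also varied together from cell to cell. Over microglia thinned to 500 UMIs (426, 437, 315 and 464 cells), the median Pearson correlation of the 276 pairs of the 24 members with at least 100 UMIs in every library was 0.11, 0.14, 0.077 and 0.12. The pairs that went together most were *Fos* with *Jun* (r of 0.43 to 0.62 over the libraries), *Fos* with *Egr1* (0.40 to 0.59) and *Fos* with *Fosb* (0.36 to 0.55). These values describe cells that share a library and a preparation, and most of the other pairs had weak correlations in counts this sparse.

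The comparison of Tg2576 with wild-type mice asks whether the transgene went with a change in these genes in each cell type. Each group is a single pool, so genotype and the preparation of the pools cannot be told apart. In endothelial cells the members had lower levels in Tg2576 than in wild-type mice of both sexes. Summed over the 38 genes, the share of endothelial UMIs was 1.58% in wild-type and 0.962% in Tg2576 females, and 2.47% and 1.55% in males, log2 ratios of -0.71 and -0.67. Of 27 members with at least 20 UMIs in both libraries of each sex together, 24 were lower in both sexes and 0 higher in both. Their median log2 ratio was -0.70 in females and -0.67 in males, against 0.022 and 0.082 over the 4891 genes measured. At least 1.5-fold lower in both sexes were 10 of the 27, namely *Fos*, *Fosb*, *Fosl2*, *Jund*, *Atf3*, *Klf4*, *Nr4a1*, *Nr4a2*, *Dusp1* and *Ppp1r15a*, against 1.53% of all genes. The count was 4 with a mitochondrial limit of 5%, 6 with 10% and 5 with cells thinned to 500 UMIs.

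*Nr4a1* stood at 268, 86.5, 305 and 125 CPM in endothelial cells, so that both Tg2576 libraries were below both wild-type libraries. Its log2 ratio, Tg2576 over wild-type, was -1.63 (95% interval -2.26 to -1.03) in females and -1.29 (95% interval -1.86 to -0.74) in males, where intervals cover counting error only. *Fosb* stood at 544, 156, 849 and 389 CPM, with ratios of -1.80 (95% interval -2.25 to -1.37) and -1.12 (95% interval -1.44 to -0.81). *Atf3* stood at 331, 149, 411 and 173 CPM, with ratios of -1.15 (95% interval -1.65 to -0.66) and -1.24 (95% interval -1.73 to -0.78). Within each sex the Tg2576 library was the lower for all 3 genes. *Fos* stood at 1862, 829, 3847 and 2002 CPM. In the edgeR test over all 4 libraries with sex as a covariate, which has 1 residual degree of freedom, 3 of 30 members were called lower and 0 higher, against 0.0724% of 5526 genes called lower. The 3 were *Fos* (-1.11 ± 0.18 SE, adjusted p = 0.036), *Fosb* (-1.49 ± 0.22 SE, adjusted p = 0.036) and *Nr4a1* (-1.51 ± 0.24 SE, adjusted p = 0.036). A fitted log2 change below 0 was found for 29 of the 30. DESeq2 called 0 members in the same cells (9 had an unadjusted p under 0.05), and edgeR called 0 with library totals alone or with a mitochondrial limit of 10% or none.

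The endothelial difference was looked at within cells of like mitochondrial share and without the interferon-response cluster. In endothelial cells with 5 to 10% mitochondrial UMIs the 38 genes held 1.79%, 1.25%, 2.80% and 1.52%, and in those with 10 to 20% they held 1.21%, 0.786%, 2.01% and 0.925%. Tg2576 was the lower within each sex in both bins. In those with 2 to 5% they held 2.54%, 2.00%, 2.36% and 1.71%, on 3, 8, 26 and 109 cells. In the larger endothelial cluster alone the shares were 1.58%, 0.985%, 2.56% and 1.55%, and edgeR called 9 of 30 members lower and 0 higher, against 0.368% of all genes lower. These were *Atf3*, *Dusp1*, *Fos*, *Fosb*, *Jun*, *Jund*, *Klf2*, *Klf4* and *Nr4a1*. Microglial markers summed to 584, 678, 407 and 569 CPM in endothelial cells and mural markers to 761, 755, 739 and 831 CPM, while haemoglobin and other erythrocyte markers stood at 10135, 0, 17.1 and 12.2 CPM, high in the female wild-type library alone. The summed ratio was -0.71 in females and -0.67 in males, and the part of erythrocyte RNA in it was not tested. Summed UMIs alone do not tell a smaller share of responding cells from less RNA per cell, so values per cell are also given. The median share per endothelial cell was 1.08%, 0.668%, 1.87% and 0.800%, and 1.33%, 4.28%, 1.02% and 7.44% of endothelial cells had no UMI of any member. The lower quartile was 0.544%, 0.367%, 0.913% and 0.378% and the upper quartile 1.98%, 1.17%, 3.32% and 1.91%. Median and quartiles were all lower in Tg2576 within each sex.

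**Figure D4:**
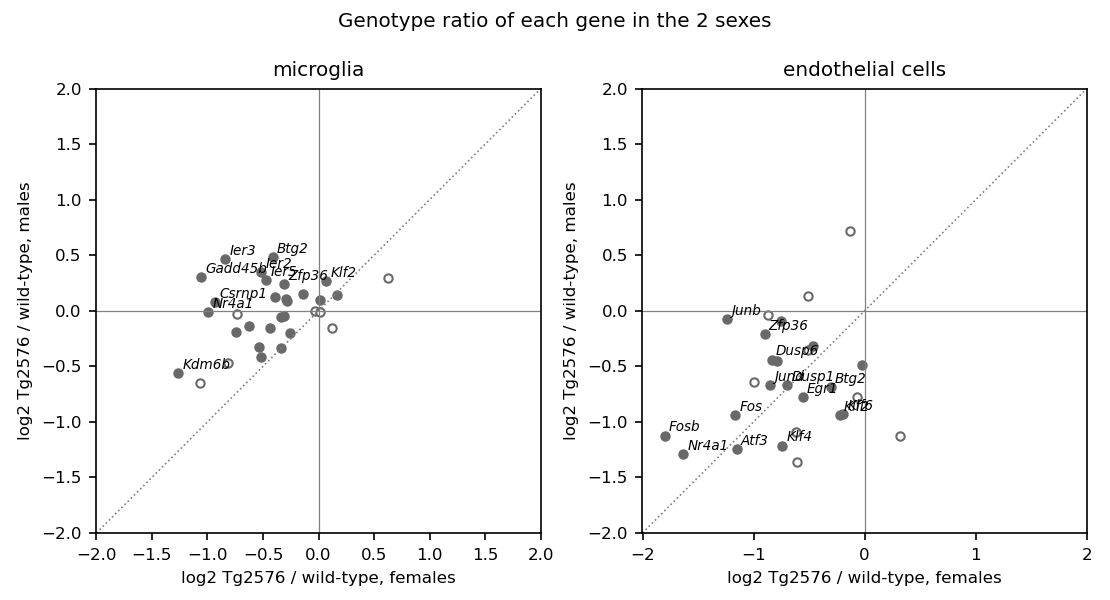
CPM in Tg2576 over CPM in wild-type mice, as a log2 ratio, in males (vertical axis) against females (horizontal axis) for each measured gene in microglia (left) and endothelial cells (right). Filled points have 100 or more UMIs over the pair of libraries of each sex, and the dotted line marks equal ratios. Of the 27 endothelial points, 24 lie below 0 on both axes, and of the 32 microglial points 15 do.

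In microglia the summed level differed between the genotypes in females and hardly in males. The difference between the sexes was not tested. The summed log2 ratio was -0.32 in females and 0.046 in males. Of 32 members measured, 15 were lower in both sexes, 4 higher in both and 13 opposite. edgeR called 2 of 32 lower and 0 higher, against 0.514% of all genes lower. They were *Kdm6b* (-0.95 ± 0.18 SE, adjusted p = 1.8e-04), at 284, 119, 246 and 167 CPM, and *Zfp36l1* (-0.51 ± 0.14 SE, adjusted p = 0.044), at 1529.9, 1071, 1844 and 1380.0 CPM. Both were lower in Tg2576 in each sex, with ratios of -1.26 (95% interval -1.69 to -0.85) in females and -0.56 (95% interval -0.95 to -0.17) in males for *Kdm6b*, and -0.51 (95% interval -0.66 to -0.37) and -0.42 (95% interval -0.56 to -0.28) for *Zfp36l1*. *Klf4* followed, with ratios of -0.34 (95% interval -0.59 to -0.091) and -0.33 (95% interval -0.54 to -0.12). *Klf4* was not called, and DESeq2 called 0 members (4 at an unadjusted p under 0.05). At least 1.5-fold lower in both sexes was 1 of 32, *Maff*, against 1.51% of all genes.

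Ranked by the smaller ratio of each pair, the largest opposite changes in microglia were those of *Ier3*, *Btg2* and *Ier2*. *Ier3* was -0.84 (95% interval -1.17 to -0.52) in females and 0.47 (95% interval 0.23 to 0.70) in males, *Btg2* -0.41 (95% interval -0.55 to -0.28) and 0.48 (95% interval 0.36 to 0.60), and *Ier2* -0.52 (95% interval -0.75 to -0.29) and 0.35 (95% interval 0.18 to 0.51). All 3 were lower in Tg2576 females and higher in Tg2576 males than in the wild-type of the same sex. The cytokine-high cluster made up 67.2%, 45.6%, 79.9% and 71.6% of microglia, lowest in the female Tg2576 library. Within that cluster the summed ratio was -0.0060 in females and 0.15 in males, and within the other cluster -0.20 and -0.11. The female ratio was nearer to 0 inside each cluster than over all microglia, while the male ratio was farther from 0 inside each. The part of the cluster shares in these ratios was not tested.

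In mural cells, the female Tg2576 library held 1.19% UMIs of the 38 genes against 2.82% in wild-type females, on 39 and 34 cells, while the males differed little. The summed log2 ratios were -1.24 and -0.12. edgeR called 2 of 24 members lower and 0 higher (0.268% of all genes lower), *Fosb* (-1.78 ± 0.42 SE, adjusted p = 0.012) and *Gadd45g* (-2.19 ± 0.53 SE, adjusted p = 0.014), and DESeq2 called 0 (2 at an unadjusted p under 0.05). *Fosb* stood at 1390.1, 133, 1449 and 806 CPM and *Gadd45g* at 474, 44.4, 352 and 119 CPM. A UMI of *Fosb* was found in 47.1%, 10.3%, 33.3% and 29.6% of mural cells and of *Gadd45g* in 17.6%, 5.13%, 16.7% and 13.0%. The female Tg2576 levels of both genes thus rest on few cells and few UMIs. *Fosb*, *Nr4a1*, *Nr4a2* and *Gadd45g*, 4 of 20 measured members, were at least 1.5-fold lower in both sexes (2.83% of all genes). *Egr1* (-1.07 and -0.47), *Klf2* (-1.28 and -0.47) and *Atf3* (-3.10 and -0.27) were below 0 in both sexes among the members with the most UMIs, but the male ratio of *Egr1* was 1.18 with cells thinned to 500 UMIs, where 1 member was 1.5-fold lower in both sexes. *Jun* (-1.31 and 0.093) and *Junb* (-1.24 and 0.091) were opposite. Endothelial markers in mural cells summed to 9632, 4309, 9871 and 10855 CPM, lowest in the female Tg2576 library as well. The mural cells of the male wild-type library stood apart in choroid plexus markers (245, 222, 5714 and 383 CPM) and oligodendrocyte markers (719.6, 511, 2925 and 634 CPM). Microglial markers were at 932, 222, 501 and 739.5 CPM. The part of these cells' RNA in the mural ratios was not tested.

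In the remaining types edgeR and DESeq2 each called 0 members by genotype. Astrocytes had 3 at an unadjusted p under 0.05 of 21 tested, with 0.0564% of all genes called in either direction. Oligodendrocytes had 4 at an unadjusted p under 0.05 of 11 (0.324% of all genes called). Neuroblasts or progenitors had 3 at an unadjusted p under 0.05 of 12 (0.0% of all genes called). In oligodendrocytes *Jun* (-0.45 and -0.29) and *Jund* (-0.052 and -0.55) had ratios below 0 in both sexes, while *Egr1* (-1.19 and 0.068), *Fos* (-1.23 and 0.0069) and *Rhob* (-0.17 and 0.014) did not share a sign. At least 1.5-fold lower in both sexes were 2 of 9 in oligodendrocytes, *Fosb* and *Ier2* (2.51% of all genes), and 2 of 7 in neuroblasts or progenitors, *Fosb* and *Klf6* (4.08%). Both counts fell to 0 with a mitochondrial limit of 5%. Of 14 members measured in astrocytes, 6 were above 0 in both sexes and 2 below, and 1, *Atf3*, was at least 1.5-fold higher in both (2.73% of all genes), at 56.7, 161, 53.3 and 83.8 CPM on 18, 31, 16 and 27 UMIs. In astrocytes *Zfp36l1* was at -0.087 and -0.36, and *Jun* at 1.32 and -0.29. The summed microglial markers in astrocytes, at 510.4, 1157, 1282 and 1039.9 CPM, were likewise higher in Tg2576 females and lower in Tg2576 males than in wild-type, and their part in the astrocyte ratios was not tested. *Jun* in neuroblasts or progenitors was at -0.88 and 0.28, and its female ratio was 0.63 with a mitochondrial limit of 5%. In these cells microglial markers, at 3777, 2429.7, 804 and 2449.9 CPM, moved in the same directions, and oligodendrocyte markers, at 601, 430.0, 686 and 6686 CPM, were high in the male Tg2576 library alone. Their part in the ratio of *Jun* was not tested. Over all kept cells, where shifts in cell type enter, edgeR called 3 of 34 members lower and 0 higher (0.463% of all genes lower). They were *Kdm6b* (-0.92 ± 0.18 SE, adjusted p = 2.8e-04), *Nr4a1* (-0.79 ± 0.17 SE, adjusted p = 7.9e-04) and *Fosb* (-0.69 ± 0.17 SE, adjusted p = 0.011), while DESeq2 called 0 (7 at an unadjusted p under 0.05). *Maff* and *Kdm6b*, 2 of 34 members, were at least 1.5-fold lower in both sexes (1.17% of all genes).

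Males had more immediate early gene RNA than females in microglia and endothelial cells of both genotypes. In microglia the summed log2 ratio, male over female, was 0.32 in wild-type and 0.69 in Tg2576 mice, and in endothelial cells 0.64 and 0.69. In mural cells it was 0.039 and 1.16. With genotype as a covariate, edgeR called 18 of 32 microglial members higher in males and 0 lower, against 2.96% of all genes higher (*Btg2*, *Csrnp1*, *Dusp1*, *Egr1*, *Fos*, *Fosb*, *Gadd45b*, *Ier2*, *Ier3*, *Ier5*, *Junb*, *Jund*, *Klf2*, *Klf4*, *Maff*, *Ppp1r15a*, *Rhob* and *Zfp36*). The median log2 difference was 0.53 for the members and 0.013 for all genes tested. DESeq2 called 2, *Junb* and *Ppp1r15a*.

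*Ier2* showed the largest of these differences, 1.06 ± 0.15 (SE, adjusted p = 3.2e-10), with the levels given above placing both male libraries over both female libraries. *Ppp1r15a* followed with 0.99 ± 0.15 (SE, adjusted p = 8.2e-09) and *Ier3* with 0.98 ± 0.16 (SE, adjusted p = 1.2e-07). *Klf2* (0.83 ± 0.14) and *Junb* (0.81 ± 0.14) were also called. *Ppp1r15a*, at 582, 347, 975 and 855 CPM, and *Junb* had both male libraries above both female ones. Within the cytokine-high cluster alone, whose share of microglia was higher in males of each genotype, edgeR called 6 members higher in males (1.58% of all genes), and within the other cluster alone 0 (15 at an unadjusted p under 0.05). The summed ratios within the clusters were 0.14 in wild-type and 0.29 in Tg2576 for the cytokine-high cluster and 0.66 and 0.75 for the other. Among microglia with 2 to 5% mitochondrial UMIs, 7 members were called higher in males (1.54% of all genes).

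**Figure D5:**
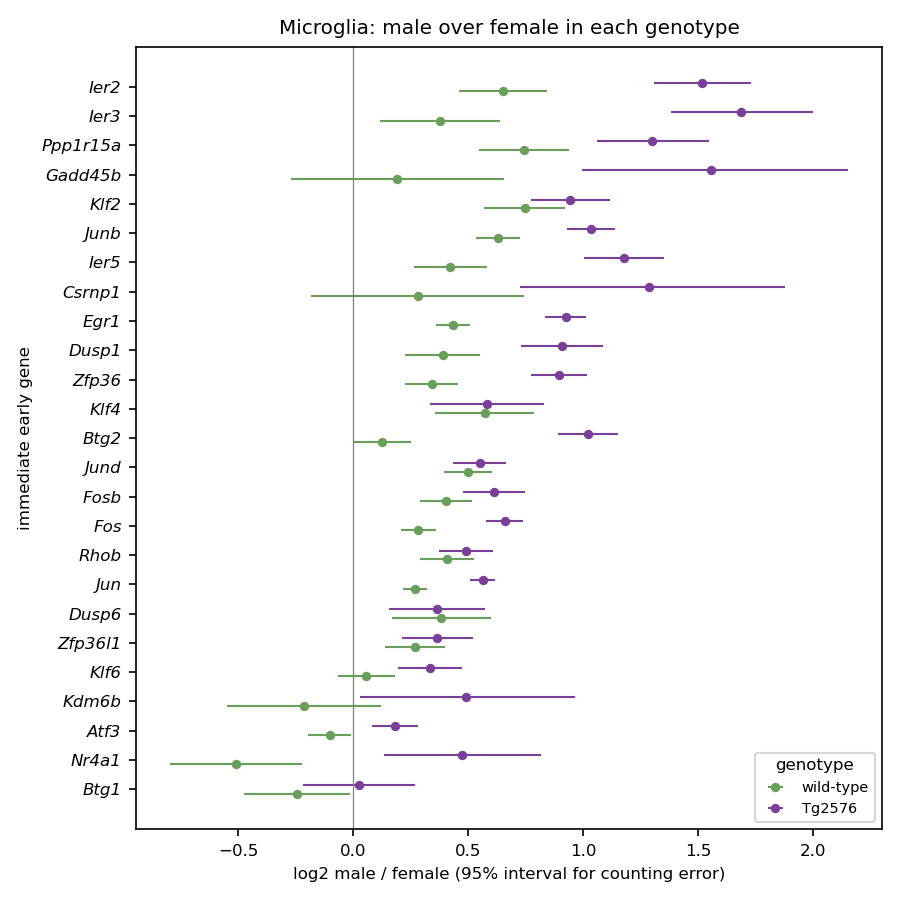
Log2 ratio of CPM in microglia, male over female, for each gene with 100 or more UMIs over the pair of libraries of each genotype, in wild-type (green) and Tg2576 (purple) mice. Bars are 95% intervals for counting error only. The points of *Ier2*, *Ier3* and *Ppp1r15a* lie above 0 in both genotypes, and those of *Nr4a1* and *Atf3* lie on opposite sides of 0.

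In endothelial cells edgeR called 2 of 30 members higher in males and 0 lower (0.127% of all genes higher), *Fos* (1.08 ± 0.18 SE, adjusted p = 0.017) and *Ppp1r15a* (1.78 ± 0.24 SE, adjusted p = 0.0024). DESeq2 called 0 (7 at an unadjusted p under 0.05). In the larger endothelial cluster alone edgeR called 7 higher in males (0.717% of all genes), *Fos*, *Fosb*, *Ier3*, *Jun*, *Junb*, *Klf2* and *Ppp1r15a*. Over all kept cells 6 of 34 were higher in males (3.25% of all genes), *Gadd45b*, *Ier2*, *Ier3*, *Junb*, *Klf2* and *Ppp1r15a*. In the other types edgeR and DESeq2 called 0 members by sex, 0 of 24 in mural cells (6 at an unadjusted p under 0.05, 0.671% of all genes called), 0 of 21 in astrocytes (7, 1.49%), 0 of 11 in oligodendrocytes (2, 2.76%) and 0 of 12 in neuroblasts or progenitors (1, 0.101%). The male libraries had the lower mitochondrial shares and sex is carried by 2 pairs of pools, so sex and the preparation of the pools cannot be told apart.

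Genes around the same pathway were taken from lists that hold no member. The 15 upstream signalling genes include serum response factor, its ELK partners, CREB and MAP kinases. In microglia 8 of 13 tested were higher than the mean of the other tested types (*Creb1*, *Elk3*, *Elk4*, *Map2k1*, *Map2k2*, *Mapk14*, *Rps6ka3* and *Srf*). The call does not place microglia above each type, and *Elk4* and *Rps6ka3* were higher in endothelial cells than in microglia in every library. Between the microglial clusters 0 of 14 differed (median log2 difference 0.039), with 1 at an unadjusted p under 0.05 and 0 by DESeq2. By genotype 0 of 14 were called in microglia by either tool (0 at an unadjusted p under 0.05 in edgeR) and by sex 0 (3 at an unadjusted p under 0.05). The other rapid-response, NF-kB and heat shock genes could enter the clustering, so their values between clusters are a description. Of 29 other rapid-response genes, 10 of 11 tested were higher in the cytokine-high cluster, among them *Mcl1*, *Per1* and *Sgk1*, against 6.05% of all genes. In microglia 1 was lower in Tg2576 (*Trib1*, -0.94 ± 0.20), against 0.514% of all genes. By sex 0 differed in edgeR (4 at an unadjusted p under 0.05) or DESeq2. Of the 10 NF-kB targets and chemokines, of which 6 chose the cluster, 6 were higher in male microglia, against 2.96% of all genes. *Il1a* (-0.94 ± 0.16) and *Tnfaip3* (-0.56 ± 0.15) were lower in Tg2576 microglia, against 0.514% of all genes. Of 9 heat shock genes, 4 were lower in male microglia and 0 higher, against 2.95% of all genes lower (*Hsp90aa1*, *Hspa1a*, *Hspa1b* and *Hsph1*), where 18 immediate early genes were higher. DESeq2 called 0 genes of these lists by genotype or sex in microglia. In Tg2576 endothelial cells 1 heat shock gene, *Hspa1b*, was lower (-1.42 ± 0.23), against 0.0724% of all genes.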

How the data were processed

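Per the labels, cells were captured by Drop-seq, and the authors deposited raw counts of UMIs per gene symbol and barcode for 4 libraries of 3000 barcodes, 1 per sex and genotype. The submitters' processing notes name build mm10 and Seurat 3.1.4, and the aligner is not given in the sources used here.

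Barcodes with 200 to 7000 genes and at most 20% mitochondrial UMIs were kept. The study's methods use 5%, which is given as an alternative. Counts were normalised with sctransform 0.4.2 and clustered in Seurat 5.3.0 under R 4.3.3 (19 principal components, resolution 0.5) on 2465 variable genes, after the 38 members, mitochondrial genes, sex-linked genes, *App* and *Prnp* were left out. A cluster was named where at least 3 markers and 50% of a marker list were raised at least 2-fold and no other list had more genes among the 10 leading genes. A cluster of very low depth also needed a leading gene from its list. In the alternatives a cluster took the name that most of its cells had in the main clustering. Doublets were kept, and Scrublet (scanpy 1.11.5) called 92 cells in an alternative. Named types with at least 20 cells in every library were tested.

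UMIs were summed per library and type. edgeR 4.0.16 (quasi-likelihood test, TMM factors, filterByExpr, Benjamini-Hochberg over all genes, two-sided, threshold 0.05) compared types and microglial clusters with the library as a term, and genotype and sex in 1 fit with 1 residual degree of freedom. Alternatives were DESeq2 1.42.0 (where a missing adjusted p is no call), library totals, other filters and clusterings, thinning to 500 UMIs and left-out libraries. The scripts were tested on simulated data. Ratios within a sex or genotype have exact 95% binomial intervals for counting error only and need 20 UMIs in the pair. Python 3.11.15, numpy 2.4.6, scipy 1.17.1, pandas 2.3.3 and matplotlib 3.10.9 were used.

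Members and lists were chosen with earlier results of these data known. Values in every library are given for members with 100 or more UMIs in each library and otherwise for the highest of each role. Between genotypes they are given for the 3 largest changes of shared sign and the 3 largest of opposite sign per type, ranked by the smaller of the pair of ratios, among members with 100 or more UMIs over the pair of libraries of each sex. Other lists are given by counts with up to 4 names. Further members are named where a test called them.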

Additional observations from a re-analysis of the deposited data

Results flagged for a closer look

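Several ratios had 95% counting intervals on opposite sides of 0 in the sexes or in the genotypes. Each rests on 1 pooled library per group, the intervals cover counting error only, and the difference between the ratios was not tested. In microglia, log2 ratios of Tg2576 over wild-type were below 0 in females and above 0 in males for 8 members. These were *Ier3* (-0.84 and 0.47), *Ier2* (-0.52 and 0.35), *Ier5* (-0.47 and 0.28), *Btg2* (-0.41 and 0.48), *Zfp36* (-0.31 and 0.24), *Junb* (-0.29 and 0.11), *Fos* (-0.29 and 0.09) and *Jun* (-0.14 and 0.15). Between sexes, microglial ratios of male over female were below 0 in wild-type and above 0 in Tg2576 mice for *Nr4a1* (-0.51 and 0.47) and *Atf3* (-0.1 and 0.18). The share of the cytokine-high cluster among microglia, given above, was lowest in the female Tg2576 library, and its part in these ratios was not tested gene by gene.

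In mural cells *Atf3* was at -0.85 in wild-type and 1.98 in Tg2576 mice, male over female, on 34 to 54 cells per library. In astrocytes *Jun* was at 1.12 in wild-type and -0.48 in Tg2576 mice and *Klf6* at 1.16 and -0.94, male over female. The ratio of *Klf6*, Tg2576 over wild-type, was 0.97 in females and -1.13 in males, and microglial markers in astrocytes summed to 510.4, 1157, 1282 and 1040 CPM in the order female wild-type, female Tg2576, male wild-type and male Tg2576. Those markers moved in the same directions as *Jun* and *Klf6* in each of these ratios, and their part in them was not tested. In mural cells of the male wild-type library, choroid plexus markers stood at 5714 CPM, against at most 383 CPM in the other libraries.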

How the results depend on the processing

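Of the counts and mean shares recomputed under the alternatives, 489 stayed within 1.5 times or within the spread between libraries. These include counts of 0 that stayed at 0, which have no direction or size to keep. A further 67 lost calls or fell by over 1.5 times, 19 rose by as much and 13 mean shares moved beyond the spread between libraries. Leaving out each library in turn left every count of the cell type and cluster comparisons within 1.5 times, with the calls higher in microglia at 25 to 29 and in the cytokine-high cluster at 28 to 29, while the genotype and sex fits have no residual degree of freedom without a library. No paired analysis was possible because each group is 1 library and the labels give no replicate numbers. The values that moved are given next, and unless stated the cause was not tested. Limits of mitochondrial UMIs are written 5%, 10% or no limit in place of 20%, and 500 genes stands for that minimum per cell. Between cell types, mural calls higher were 16 with thinned cells, against 25, and oligodendrocyte calls lower were 17 with thinned cells, against 26. Neuroblast or progenitor calls lower were 12 with library totals alone and 7 with a 10% limit, against 19. At the 10% limit the cluster of that name had *Mrc1* and *Ngp*, a macrophage and a neutrophil marker, among its leading genes. The same cluster enters the mean share and the reversals given below for that limit. Calls higher in the cytokine-high cluster were 4 with a 5% limit and 500 genes, 5 with a 10% limit and 7 with resolution 1, against 29, where the cells compared differ. With a 5% limit and with 500 genes, macrophage markers were also raised in the cluster of highest cytokine level. Calls lower in Tg2576 in all kept cells were 0 with DESeq2, no covariate, a 5% limit, a 10% limit and thinned cells, against 3. Calls lower in Tg2576 in endothelial cells were 0 with library totals alone, DESeq2, no covariate, a 10% limit, no limit and all variable genes, 5 with no filter and resolution 0.06, 9 with the larger cluster alone and 7 with 500 genes, against 3. Calls lower in Tg2576 in microglia were 1 with library totals alone, no filter, the cytokine-high cluster alone, a 10% limit, 500 genes, resolution 0.06, resolution 1 and doublets left out and 0 with DESeq2, no covariate, the other cluster alone, 2 to 5% mitochondrial UMIs, a 5% limit, no limit and thinned cells, against 2. Calls lower in Tg2576 in mural cells were 0 with library totals alone, DESeq2, no covariate and thinned cells and 1 with no filter and no limit, against 2. Calls higher in males in all kept cells were 1 with DESeq2 and 0 with no covariate, a 5% limit and a 10% limit, against 6. Calls higher in males in astrocytes were 2 with library totals alone, 1 with no filter and all variable genes and 4 with no limit, against 0. Calls higher in males in endothelial cells were 4 with no filter, 0 with DESeq2 and a 10% limit, 1 with no covariate, 7 with the larger cluster alone, 10 with 500 genes and 5 with resolution 0.06 and thinned cells, against 2. Calls higher in males in microglia were 2 with DESeq2, 6 with no covariate and the cytokine-high cluster alone, 0 with the other cluster alone, 7 with 2 to 5% mitochondrial UMIs, 5 with a 5% limit and 4 with no limit, against 18. Calls higher in males in mural cells were 1 with no limit, against 0. Calls lower in males over all kept cells were 2 with a 10% limit, against 0. Members at least 1.5-fold lower in both sexes in endothelial cells were 4 with a 5% limit, 6 with a 10% limit and 5 with thinned cells, against 10. Members at least 1.5-fold lower in both sexes in neuroblasts or progenitors were 0 with a 5% limit and thinned cells and 1 with a 10% limit, against 2. Members at least 1.5-fold lower in both sexes in oligodendrocytes were 0 with a 5% limit and no limit and 1 with a 10% limit, 500 genes, doublets left out and thinned cells, against 2. Members at least 1.5-fold lower in both sexes in microglia were 2 with all variable genes, totals without mitochondrial genes and *Malat1* and TMM factors, against 1. Members at least 1.5-fold lower in both sexes in astrocytes were 1 with thinned cells, against 0. Members at least 1.5-fold lower in both sexes in mural cells were 1 with thinned cells, against 4. The mean share in astrocytes was 0.407% with a 5% limit, 0.382% with a 10% limit and 0.149% with doublets left out, against 0.238%. The mean share in endothelial cells was 2.60% with a 5% limit, against 1.64%. The mean share in neuroblasts or progenitors was 1.07% with a 10% limit, against 0.753%. The mean share in the other microglia was 5.06% with a 5% limit, 4.66% with a 10% limit, 4.67% with 500 genes, 4.63% with resolution 1 and 1.45% with all variable genes, against 2.03%. The mean share in the cytokine-high microglia was 5.04% with a 10% limit, 4.86% with 500 genes and 5.01% with resolution 1, against 5.83%. With a 10% limit the log2 differences between the microglial clusters turned to -0.0027 for *Csrnp1*, -0.05 for *Dusp6*, -0.06 for *Egr1*, -0.10 for *Fosb*, -0.02 for *Ier5*, -0.04 for *Jun*, -0.02 for *Jund*, -0.07 for *Klf4*, -0.02 for *Klf6* and -0.10 for *Rhob*. With a 5% limit the differences turned to -0.33 for *Dusp6*, -0.06 for *Fosb*, -0.12 for *Jun*, -0.06 for *Klf4*, -0.07 for *Klf6* and -0.05 for *Rhob*. With 500 genes the differences turned to -0.02 for *Dusp6*, -0.12 for *Egr1*, -0.13 for *Fosb*, -0.03 for *Ier5*, -0.10 for *Jun*, -0.04 for *Jund*, -0.06 for *Klf4*, -0.06 for *Klf6* and -0.10 for *Rhob*. With resolution 1 the differences turned to -0.01 for *Dusp6*, -0.07 for *Egr1*, -0.09 for *Fosb*, -0.02 for *Jun*, -0.05 for *Klf4* and -0.04 for *Rhob*. Other reversals were *Klf6* in mural cells with thinned cells (-0.64), *Btg2* (0.04), *Ier3* (0.83) and *Nr4a1* (0.43) in neuroblasts or progenitors with a 10% limit, and the ratios of Tg2576 over wild-type of *Jun* in female neuroblasts or progenitors with a 5% limit (0.63) and of *Egr1* in male mural cells with thinned cells (1.18). Settings that use 1 cluster, a bin of mitochondrial share or the larger endothelial cluster were chosen after seeing the data. At resolution 0.06 microglia formed 1 cluster and gave no cluster comparison, and types under 20 cells in a library gave none with stricter limits. Depth limits the scarce members, and counting intervals of *Egr3*, *Arc*, *Npas4* and *Nr4a3* are too wide for any order.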
